A study of Rattus norvegicus with 10 samples.

Results

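Complement factors are plasma proteins, made largely by hepatocytes, that mark microbes and damaged cells for clearance. The 9 factors described here are C3, C5, C6, C8a, C9, C1s, Cfi, C4bpa and Masp1. They were taken as every probe set of the deposited array table that the platform annotation assigns to exactly 1 gene symbol, that symbol being one of the 9. This gave 9 of the 9378 genes named on the array and 11 of its 15899 probe sets, because Masp1 has 3 and each of the other 8 genes has 1. All 11 were bright enough to enter the test, which covered 11894 probe sets and 7727 genes.

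The study measured liver RNA of 10 rats of the strain CRL:WI (Han), aged 6 to 8 weeks, on Affymetrix arrays, 1 array per animal. The 5 rats of the RG3487 group received this test compound at 180 mg/kg by gavage, and the 5 vehicle rats received deionized water by the same route, both at 5 ml/kg. The sample labels place the livers at 24 h after dosing, while the series text names 2 h, and the time of the labels is used here. The labels do not state the sex. Because animals shared housing in groups of 5, a housing group may equal a treatment group, and the pair of factors cannot be told apart. Where nothing else is said, p-values weigh the difference between the groups against the spread between these 10 rats.

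Complement is started along 3 routes. In the classical route C1q binds antibody and switches on the proteases C1r and C1s, in the lectin route collectins and ficolins act with the MASP proteases, and the alternative route turns over on surfaces by itself. All of them cleave C3, then C5, after which C6, C7, C8 and C9 assemble into the membrane attack complex, while inhibitors such as factor I and C4b-binding protein limit the cascade. The liver supplies most circulating complement, and several of these genes belong to the acute phase response.

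Of 13 hepatocyte markers 12 had a probe set, among them Alb, which encodes albumin, at 6895 ± 728 with RG3487 and 6959 ± 433 with vehicle (SD, n = 5 each). Their summed signal was 73165 to 83352 with RG3487 and 85931 to 91002 with vehicle. By the threshold given below 6 of the 12 fell and 0 rose, where 7.4% of all genes were lower and 22.3% higher. Of the brightest 5% of probe sets, where all these markers but Tat lay, 31.9% were lower and 19.7% higher. The log2 changes of the 12 ran from -0.68 to -0.02, and Alb changed least. In a bulk sample, fewer cells of a type and less RNA per cell cannot be told apart. Array means lay between 330.0 and 331.8, the mark of scaling to a common mean, and correlations of log2 signal were 0.979 to 0.986 within a group and 0.967 to 0.978 between groups. The median signal was 94.4 ± 1.5 with RG3487 and 88.6 ± 2.6 with vehicle (SD, n = 5 each), and the maximum was 9771 ± 433 and 10784 ± 399. The 18 hybridization controls, foreign transcripts added to each sample, averaged 9.65 ± 0.03 with RG3487 and 9.85 ± 0.03 with vehicle on the log2 scale. These medians, the controls and the mean of the hepatocyte markers differed between the groups by an exact two-sided permutation test (p = 0.00794 each, the smallest that 5 against 5 arrays allow, also after adjustment over the 3). The 3′ to 5′ signal ratio of the actin control, which falls with better RNA quality, was 3.10 ± 0.30 with RG3487 and 3.42 ± 0.26 with vehicle (SD, n = 5 each), with overlapping groups. The part of these array differences in the complement changes was not tested, other than by the scalings given with the results.

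Promoters are shown for C3, at which all routes meet, for C5 and Cfi, which had the largest changes among the genes with 1 probe set, and for C6, the gene with the smallest change. RefSeq promoters of build GRCr8, running from 250 bases before to 50 after the gene start, matched 7 of the 9 genes. C9 and C1s had no entry. Capitals mark matches, overlapping ones merged, to 6 motifs of liver or acute phase regulators searched on both strands: C/EBP (TTNNGNAA), STAT (TTCNNNGAA), the interleukin 6 response element (CTGGGAA), the short HNF1 motif (GTTAAT), HNF4 (CAAAGTCCA) and, on the gene's strand alone, the TATA box (TATAAA).
C3 (chr9:2201290-2201589, - strand): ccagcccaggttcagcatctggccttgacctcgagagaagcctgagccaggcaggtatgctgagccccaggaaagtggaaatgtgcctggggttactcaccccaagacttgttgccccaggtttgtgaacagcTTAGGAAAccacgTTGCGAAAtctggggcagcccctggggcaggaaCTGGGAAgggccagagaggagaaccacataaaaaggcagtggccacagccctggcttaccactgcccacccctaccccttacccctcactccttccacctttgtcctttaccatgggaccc
C5 (chr3:38759419-38759718, - strand): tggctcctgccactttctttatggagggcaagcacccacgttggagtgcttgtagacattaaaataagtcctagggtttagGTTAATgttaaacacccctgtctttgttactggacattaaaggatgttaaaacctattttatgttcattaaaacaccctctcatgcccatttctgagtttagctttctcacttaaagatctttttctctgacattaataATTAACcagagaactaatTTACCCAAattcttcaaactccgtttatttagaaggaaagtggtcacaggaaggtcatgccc
Cfi (chr2:221063066-221063365, + strand): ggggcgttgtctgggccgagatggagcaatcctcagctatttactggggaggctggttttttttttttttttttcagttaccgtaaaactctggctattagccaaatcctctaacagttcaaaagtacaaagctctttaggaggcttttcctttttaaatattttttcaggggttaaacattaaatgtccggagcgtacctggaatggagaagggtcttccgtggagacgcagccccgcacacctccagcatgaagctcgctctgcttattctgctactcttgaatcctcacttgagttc
C6 (chr2:55573383-55573682, + strand): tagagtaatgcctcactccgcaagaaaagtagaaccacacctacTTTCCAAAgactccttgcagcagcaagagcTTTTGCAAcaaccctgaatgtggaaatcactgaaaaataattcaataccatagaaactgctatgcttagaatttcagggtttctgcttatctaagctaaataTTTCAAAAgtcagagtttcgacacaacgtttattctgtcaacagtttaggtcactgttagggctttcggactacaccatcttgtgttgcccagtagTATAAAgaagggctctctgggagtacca
The C3 window held 2 overlapping C/EBP matches, 1 on each strand, starting at position -104, another at -117 and the interleukin 6 motif at -71. C5 held an HNF1 match at -169 and another at -30, with a C/EBP match at -12. The C6 window held 3 C/EBP matches and the TATA letters at position 23, past the gene start. The Cfi window held none of the 6 motifs. Over all 7 promoters, C/EBP letters were found in 6, against 41.3% of the 33469 rat promoters in the table, and the HNF1 letters in 3, against 7.45%. STAT was found in 1, against 8.87%, the interleukin 6 motif in 1, against 11.3%, HNF4 in 0, against 0.391%, and the TATA letters in 1, against 8.8%. The promoters with HNF1 letters, C5, C8a and C4bpa, had 38%, 40% and 47.7% G and C bases, against a median of 51.7% over all promoters. C6 and Cfi also lay below that median, at 40.7% and 45%, and C3 and Masp1 above it, at 58.3% and 54.3%. The part of base composition in these motif counts was not tested. A match is a run of letters and not a shown binding site.

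Of the 9 complement genes, 7 fell with RG3487, 0 rose and 2, C6 and Masp1, did not pass. Here a gene is represented by its brightest probe set, changes are on the log2(signal + 16) scale, and a change passed where limma's p, adjusted by Benjamini-Hochberg over all 11894 probe sets, was under 0.05. Among all 7727 genes 7.4% were lower and 22.3% higher. The 9 genes were chosen with earlier results of these data known, so their count beside these shares is a description and no test. The falls were between 1.17-fold and 1.53-fold. The median log2 change of the 9 genes was -0.27, against 0.09 for all genes, so it lay 0.36 lower on the log2 scale. Counted as probe sets, 8 of the 11 fell, where 27.7% of all probe sets passed, 7.16% as lower and 20.5% as higher. In 7 of the 11 the RG3487 arrays lay entirely under the vehicle arrays, where 4.48% of all probe sets did so and 18.4% did not overlap in either direction.

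**Figure D1:**
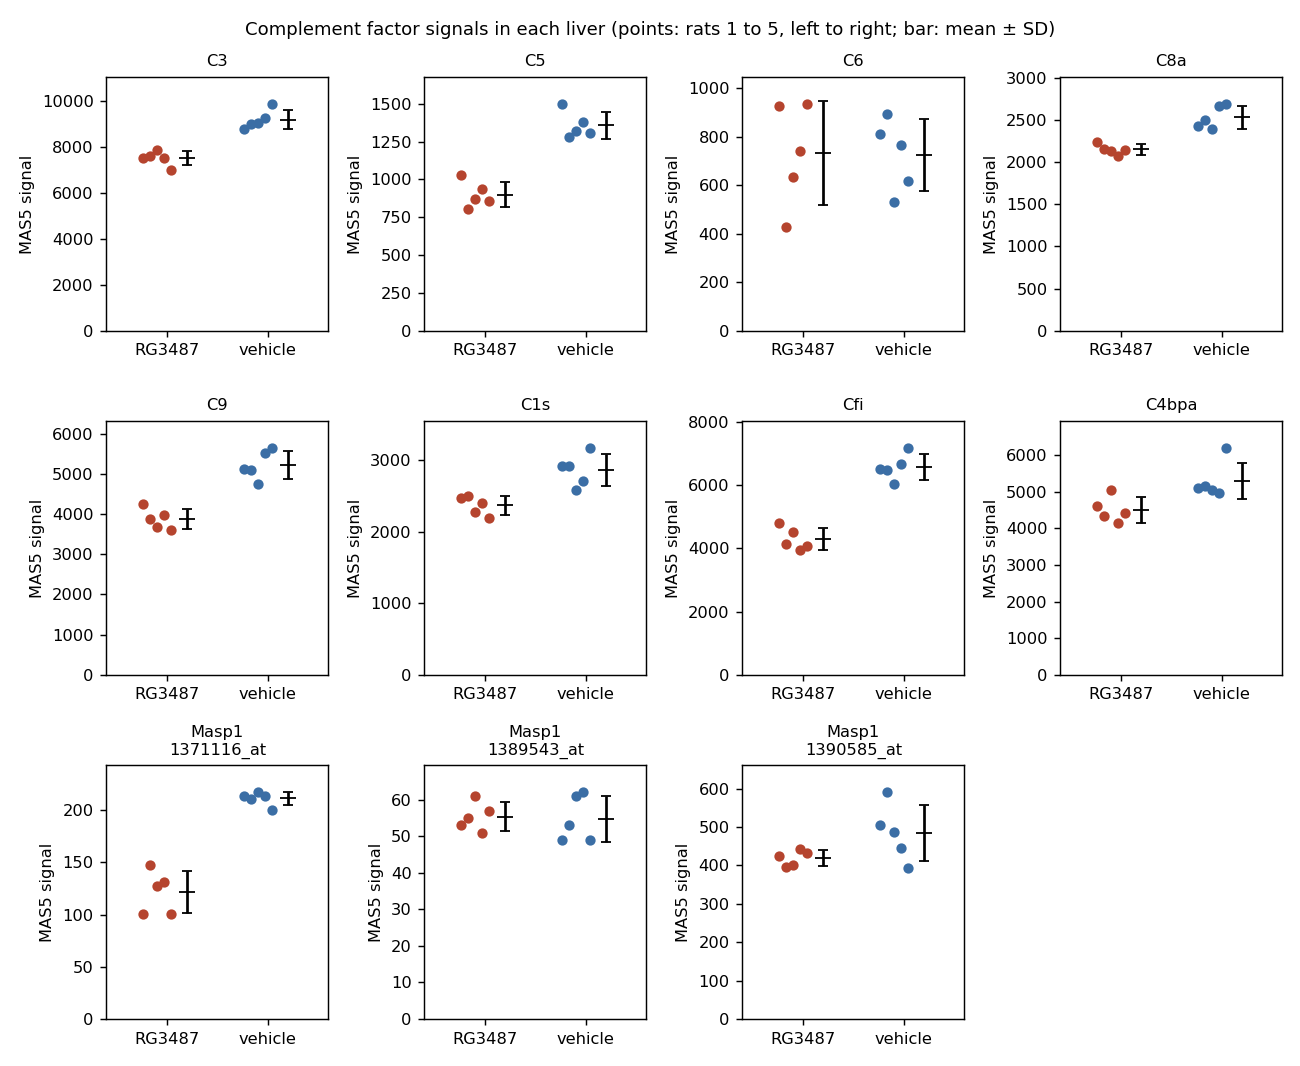
MAS5 signal (linear scale, from 0) of each of the 11 complement probe sets in the livers of 5 RG3487 rats (red, left) and 5 vehicle rats (blue, right), with the mean and SD of each group as a black bar. C3, C5, C8a, C9, C1s, Cfi and the first Masp1 probe set show no overlap between the groups, while C6, C4bpa and the other Masp1 probe sets do.

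C1s is the protease of the C1 complex that cleaves C4 and C2. Its signals were 2474, 2500, 2267, 2392 and 2193 in the RG3487 livers, against 2911, 2909, 2582, 2706 and 3160 in the vehicle livers. Every RG3487 value was below every vehicle value. The log2 change was -0.27 ± 0.06 (SE), a 1.20-fold fall (limma adjusted p = 0.00781). C1r, the protease that activates C1s, had 1684, 1698, 1494, 1621 and 1489 with RG3487, against 1619, 1663, 1493, 1585 and 1625 with vehicle. These groups overlapped throughout, and the change of C1r was 0.00 ± 0.06 (adjusted p = 0.990).

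The changes of C1s and C1r differed from each other. Within an array, the log2 signal of C1s minus that of C1r averaged 0.56 ± 0.02 with RG3487 and 0.83 ± 0.07 with vehicle (SD, n = 5 each), a difference of -0.27 with no overlap (exact two-sided permutation p = 0.00794, adjusted p = 0.0238). A constant factor per array cancels in such a difference but for the 16 added to each signal, and the difference shows only that the change was unequal. It was computed for 6 pairs of partner genes and for the 3 pairs of Masp1 probe sets, with p adjusted over these 9, and the pairs were chosen after the values of the genes had been seen. C1s minus C1r passed in all 13 alternatives run on it. Those that left out a rat had to pass, because groups that do not overlap stay apart when a rat is removed.

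Of the subunits of C1q, the recognition part of C1, C1qb fell by 0.23 ± 0.08 on the log2 scale (adjusted p = 0.0403), while C1qa had -0.24 ± 0.10 (adjusted p = 0.103) and C1qc -0.06 ± 0.09 (adjusted p = 0.606). C1qb lost its call without RG3487 rat 1, 2, 3 or 5 or vehicle rat 1, 2 or 4 (adjusted p = 0.0618 to 0.092) and with scaling by the hybridization controls (-0.04, adjusted p = 0.723). C1q is known to be made by macrophages rather than hepatocytes. The macrophage list, which includes the C1q genes, had 3 lower and 1 higher of 10 members, where 7.4% of all genes were lower and 22.3% higher. The lower ones were C1qb itself, Cd14 and Cd163, and the higher one was Lyz2. The summed signal of the list was 4439 to 5311 under RG3487 and 4968 to 5904 under vehicle. The part of the macrophage list in the C1q values was not tested.

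Masp1 encodes MASP-1, a protease that starts the lectin route, and by alternative splicing MASP-3 and a form without protease activity. Its 3 probe sets disagreed. The middle one in brightness had 101, 147, 127, 131 and 101 in the RG3487 livers, against 214, 211, 217, 214 and 200 in the vehicle livers. All RG3487 livers were well under all vehicle livers, and the log2 change of -0.74 ± 0.09 (1.67-fold, adjusted p = 0.000309) was the largest of the 11 probe sets. The brightest had 424, 396, 401, 442 and 433 with RG3487, against 504, 590, 486, 445 and 394 with vehicle. Vehicle rat 5 lay below all the RG3487 livers there, and the change of -0.19 ± 0.09 did not pass (adjusted p = 0.143). The dimmest had 51 to 61 with RG3487 and 49 to 62 with vehicle, and a change of 0.02 ± 0.08 (adjusted p = 0.911). The splice form that each probe set reads was not analysed here.

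The differences between the 3 probe sets were tested within arrays. The middle minus the dimmest probe set averaged 0.93 ± 0.23 with RG3487 and 1.69 ± 0.11 with vehicle (SD, n = 5 each; difference -0.75, exact permutation adjusted p = 0.0238), with no overlap. The dimmest probe set, at the 12.4th percentile of brightness, is not shown to lie above background. The middle minus the brightest differed by -0.55 between the groups (exact permutation adjusted p = 0.0357), with overlapping groups, and this call was lost without RG3487 rat 1, 3, 4 or 5 or vehicle rat 5 (exact permutation adjusted p = 0.0536 in each). The dimmest minus the brightest differed by 0.20 with overlap (exact permutation adjusted p = 0.188) and passed in 0 of 13 alternatives. For the brightest probe set the change was -0.26 without vehicle rat 5 and passed (limma adjusted p = 0.0399), as it did with quantile normalization (-0.28, adjusted p = 0.0327) and with arrays centred on their median (-0.27, adjusted p = 0.033). Without vehicle rat 2, the highest liver, it was -0.12 (adjusted p = 0.307).

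Among the other lectin route genes 5 were tested and 0 passed by their brightest probe set in limma, with 1, Masp2, at an unadjusted p under 0.05. Those with the smallest p were the protease gene Masp2 (-0.15 ± 0.06, adjusted p = 0.0703) and the ficolin gene Fcna (-0.18 ± 0.09, adjusted p = 0.152). The dimmer probe sets of Masp2 had -0.27 ± 0.10 (limma adjusted p = 0.0691) and -0.11 ± 0.11 (limma adjusted p = 0.488). Masp2 passed without RG3487 rat 3 (adjusted p = 0.0467) or vehicle rat 3 (adjusted p = 0.024), and Fcna without vehicle rat 4 (-0.26, adjusted p = 0.0197). Both also passed with quantile normalization and with arrays centred, and both had values above 0 when arrays were scaled by the hybridization controls (0.048 for Masp2 and 0.0085 for Fcna). The probe sets of Mbl2, which encodes a mannose-binding lectin, had 0.00 ± 0.05 (adjusted p = 0.974) for the brighter and 0.20 ± 0.06 (adjusted p = 0.0335) for the other, a difference that was not tested.

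C3 is the component on which all 3 routes converge and a known acute phase protein. Its signals were 7538, 7618, 7847, 7532 and 7001 with RG3487, against 8760, 9007, 9046, 9240 and 9853 with vehicle, which placed it 13th in brightness of all probe sets tested. The groups did not overlap, and the coefficient of variation was 4.14% with RG3487 and 4.49% with vehicle. The log2 change was -0.29 ± 0.04 (1.22-fold, adjusted p = 0.000826), and -0.12 with quantile normalization (adjusted p = 0.00886). Of the alternative route genes Cfd, which encodes factor D, had -0.09 ± 0.11 (adjusted p = 0.565) and Cfp, which encodes properdin, had -0.09 ± 0.07 (adjusted p = 0.391). With 1 rat left out Cfd ranged from -0.16 to -0.03 and Cfp from -0.13 to -0.06. Both are known to be made mainly outside the hepatocyte.

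**Figure D2:**
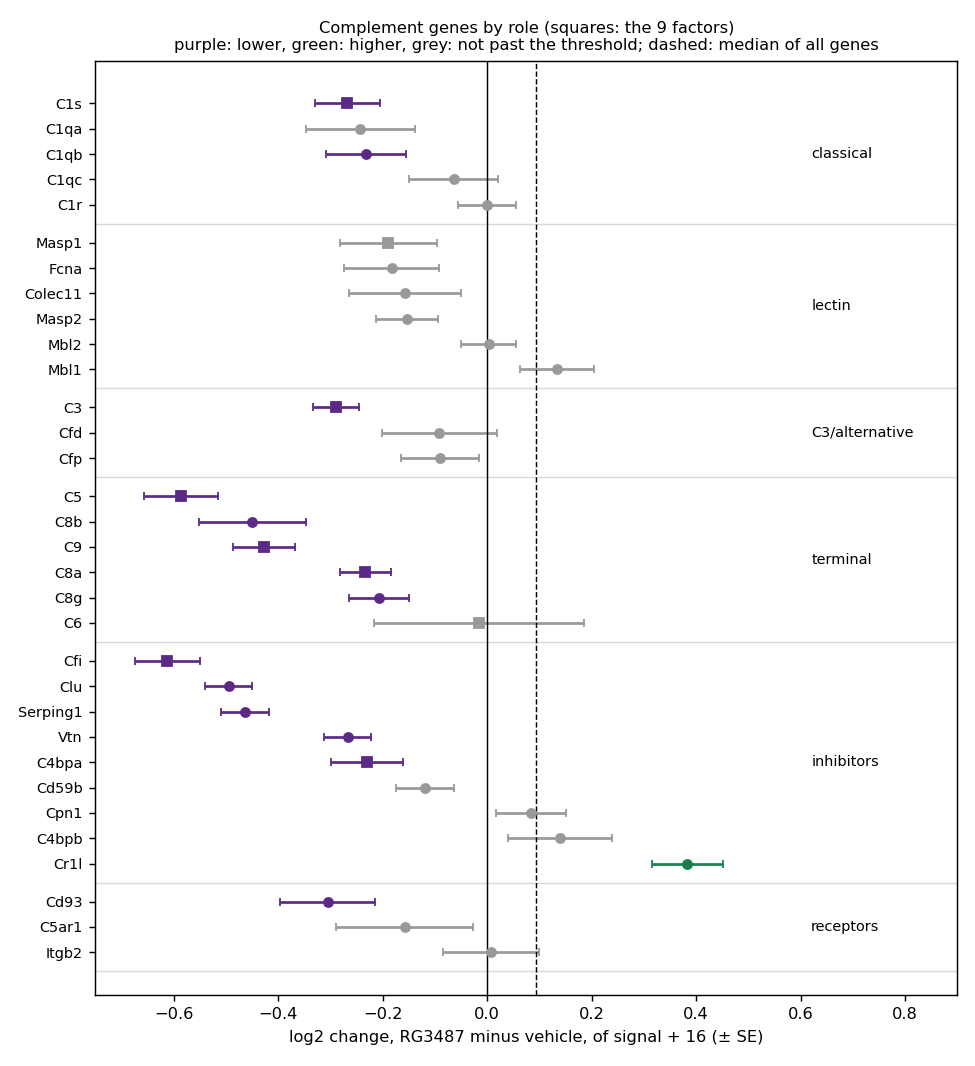
Log2 change (RG3487 minus vehicle, signal + 16, ± SE) of the 32 complement genes tested, ordered by role, with the 9 factors as squares, genes that were lower in purple, the 1 that was higher in green and the rest in grey. The dashed line is the median of all genes (0.09). Cfi and C5 lie furthest to the left. The terminal components run from -0.59 (C5) to -0.01 (C6), and the inhibitors from -0.61 (Cfi) to 0.38 (Cr1l).

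C5 is split into the inflammatory peptide C5a and C5b, which starts the membrane attack complex. Its signals were 1026, 806, 870, 937 and 859 with RG3487, against 1496, 1279, 1318, 1380 and 1308 with vehicle. The highest RG3487 liver, rat 1, stayed under the lowest vehicle liver. The log2 change was -0.59 ± 0.07 (adjusted p = 0.000214), and it passed in all 20 alternatives.

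C6 binds C5b. Its signals were 927, 426, 634, 741 and 933 with RG3487, against 812, 895, 532, 766 and 618 with vehicle. The groups overlapped over nearly their whole range, and the coefficient of variation was 29.1% with RG3487 and 20.3% with vehicle, the widest of the 11 probe sets. The log2 change was -0.01 ± 0.20 (95% interval -0.45 to 0.42, adjusted p = 0.966), an interval that still includes a fall as large as that of C9. The sign turned when RG3487 rat 2, the lowest liver, was left out (0.16, adjusted p = 0.484). C5 minus C6 averaged 0.34 ± 0.38 with RG3487 and 0.91 ± 0.29 with vehicle (SD, n = 5 each; difference -0.57, exact permutation adjusted p = 0.0476), a call that passed in only 3 of 13 alternatives. Those that left out RG3487 rat 1, 3, 4 or 5 or vehicle rat 1, 3, 4 or 5 did not pass, with values of -0.60 to -0.46 and exact permutation adjusted p of 0.0612 to 0.107.

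C8 consists of 3 chains, encoded by C8a, C8b and C8g, and all of them fell as deposited, though none passed with scaling by the hybridization controls. C8a, whose chain inserts into the membrane, had 2240, 2160, 2129, 2072 and 2147 with RG3487, against 2432, 2493, 2387, 2659 and 2684 with vehicle, without overlap. Its log2 change was -0.23 ± 0.05 (1.18-fold, adjusted p = 0.00455). C8b, whose chain binds the C5b-6-7 complex, had 2583 to 3044 with RG3487 and 2871 to 4312 with vehicle, and a change of -0.45 ± 0.10 (adjusted p = 0.00736). The vehicle livers of C8b divided into rat 4 at 2871 and the other 4 at 4159 to 4312. C8g, whose chain is a lipocalin, had 3198 to 3681 with RG3487 and 3544 to 4172 with vehicle, and a change of -0.21 ± 0.06 (adjusted p = 0.0184).

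The difference between C8a and C8g was -0.03 between the groups (exact permutation adjusted p = 0.651), and that between C8a and C8b was 0.22 (adjusted p = 0.188), and neither passed. The difference between C8b and C8g was not tested. Without vehicle rat 4 the value for C8a minus C8b was 0.34 and passed (exact permutation adjusted p = 0.0179). Without vehicle rat 2 the value for C8a minus C8g turned to 0.0097 (adjusted p = 0.849). C8g lost its call with quantile normalization (-0.11, adjusted p = 0.102). With scaling by the controls C8a had -0.03 (adjusted p = 0.625), C8b -0.25 (adjusted p = 0.0623) and C8g 0.00 (adjusted p = 0.961).

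C9 polymerizes into the pore of the membrane attack complex. Its signals were 4238, 3888, 3684, 3981 and 3610 with RG3487, against 5115, 5104, 4751, 5507 and 5632 with vehicle, with no overlap. The log2 change was -0.43 ± 0.06 (1.34-fold, adjusted p = 0.000468), and it passed in all 20 alternatives. Of the 6 terminal genes tested, 5 fell and C6 did not pass, where 7.4% of all genes were lower. Of the brightest 5% of probe sets, which hold C8a, C8b, C8g and C9, 31.9% were lower. Of the brightest 10%, which also hold C5, 23% were lower.

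Cfi encodes factor I, the protease that inactivates C3b and C4b with the help of cofactors. Its signals were 4784, 4147, 4516, 3947 and 4075 with RG3487, against 6492, 6461, 6039, 6665 and 7156 with vehicle. The highest RG3487 liver, rat 1, lay under the lowest vehicle liver, rat 3. The log2 change of -0.61 ± 0.06 (1.53-fold, adjusted p = 8e-05) was the largest among the 9 genes and passed in all 20 alternatives.

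C4bpa encodes the alpha chain of C4b-binding protein, one of those cofactors. Its signals were 4615, 4324, 5054, 4139 and 4408 with RG3487, against 5111, 5165, 5049, 4969 and 6182 with vehicle. RG3487 rat 3 lay above 2 of the vehicle livers, and vehicle rat 5 stood well above all others. The log2 change was -0.23 ± 0.07 (1.17-fold, adjusted p = 0.0279). The call was lost without RG3487 rat 2, 4 or 5 (adjusted p = 0.0619, 0.0683 and 0.0585), without the variance trend (0.0512) and with quantile normalization (-0.08, adjusted p = 0.312), and the value was -0.17 without vehicle rat 5.

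Cfi and C4bpa changed unequally, in a pair chosen after their values had been seen and with p adjusted over the chosen pairs alone. Cfi minus C4bpa averaged -0.07 ± 0.08 with RG3487 and 0.31 ± 0.08 with vehicle (SD, n = 5 each), a difference of -0.38 without overlap (exact permutation adjusted p = 0.0238). This difference passed in all 13 alternatives run on it. Those that left out a rat had to pass, because groups without overlap stay apart when a rat is removed. C4bpb, which encodes the beta chain that binds protein S, had 2341 to 3037 with RG3487 and 1993 to 2811 with vehicle (0.14 ± 0.10, limma adjusted p = 0.317). C4bpa minus C4bpb averaged 0.73 ± 0.11 with RG3487 and 1.102 ± 0.27 with vehicle (difference -0.37, exact permutation adjusted p = 0.0429). That last call did not hold with quantile normalization (-0.25, adjusted p = 0.0804) or without RG3487 rat 1, 3, 4 or 5 or vehicle rat 5 (-0.37 to -0.30, adjusted p = 0.0571 to 0.107).

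**Figure D3:**
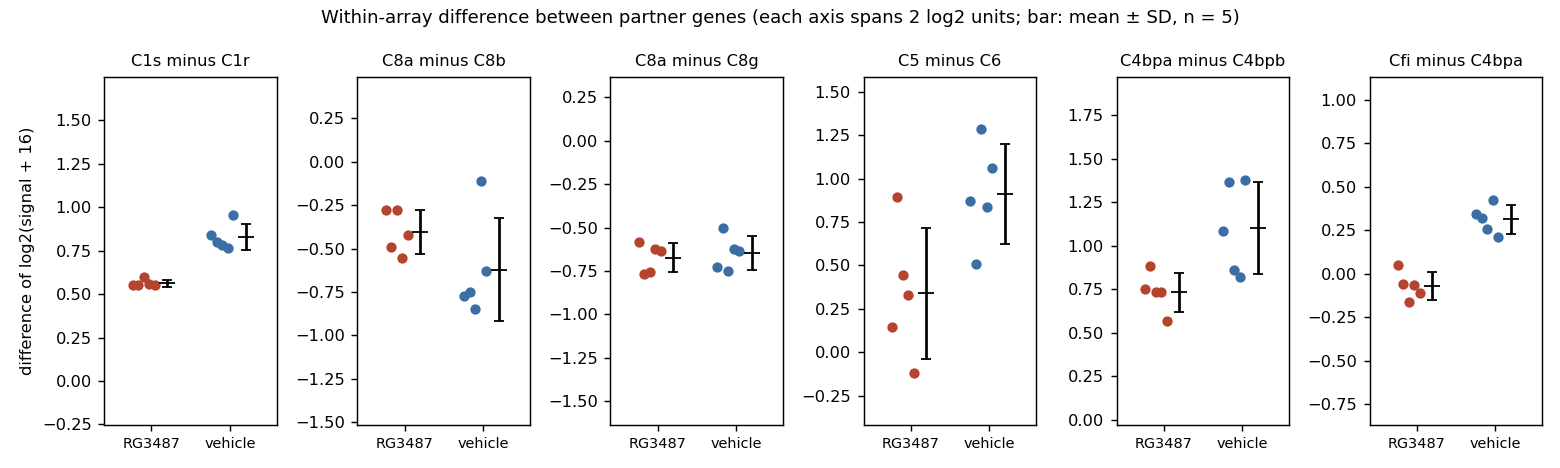
Difference of log2(signal + 16) between partner genes within each array, for 5 RG3487 livers (red, left) and 5 vehicle livers (blue, right) with mean and SD, every panel spanning 2 log2 units. C1s minus C1r and Cfi minus C4bpa separate the groups, C4bpa minus C4bpb and C5 minus C6 are shifted with overlap, and the C8 pairs overlap.

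Among the other inhibitors 3 of 7 fell and 1 rose, where 7.4% of all genes were lower and 22.3% higher. Of the brightest 5% of probe sets, which hold the 3 that fell, 31.9% were lower. Clu, which encodes clusterin, an inhibitor of the attack complex in plasma, had 3921, 3621, 3525, 3885 and 3508 with RG3487, against 5088, 5166, 5255, 5150 and 5361 with vehicle (log2 change -0.49 ± 0.05, adjusted p = 4e-05). Serping1, the inhibitor of C1r, C1s and the MASP proteases, had 4078 to 4375 with RG3487 and 5476 to 6236 with vehicle (-0.46 ± 0.05, adjusted p = 7.1e-05). Vtn, which encodes vitronectin, had 5600 to 6436 and 6918 to 7478 (-0.27 ± 0.04, adjusted p = 0.00139). In these 3 genes the groups did not overlap. Vtn had -0.10 with quantile normalization (adjusted p = 0.0409) and lost its call with scaling by the hybridization controls (-0.06, adjusted p = 0.248). Cr1l, which encodes the membrane regulator Crry of rodents, had 610 to 721 with RG3487 and 449 to 522 with vehicle (0.38 ± 0.07, adjusted p = 0.00181), also without overlap. Clu, Serping1 and Cr1l passed in all 20 alternatives, with -0.29, -0.26 and 0.58 under scaling by the controls.

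Of the 3 receptors tested Cd93 fell by 0.31 ± 0.09 on the log2 scale (adjusted p = 0.0268). It is known from endothelial and myeloid cells, and its call was lost without RG3487 rat 2 or vehicle rat 1, 2 or 4 (adjusted p = 0.0589 to 0.0644) and with scaling by the hybridization controls (-0.13, adjusted p = 0.25). The endothelial list had 1 lower and 0 higher of 6, where 7.4% of all genes were lower and 22.3% higher. Its sums were 2014 to 2353 under RG3487 and 2373 to 2649 under vehicle, and its part in the Cd93 value was not tested. Over all complement genes outside the 9 factors, 47 were listed, 24 had a probe set and 23 were tested, of which 7 were lower, 1 was higher and 15 did not pass, where 7.4% of all genes were lower and 22.3% higher. Their median change was -0.15.

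Of 13 tested regulators of liver complement genes, 4 rose and 1 fell, where 22.3% of all genes were higher and 7.4% lower, so the counts are near those shares. Hnf4a, a transcription factor that maintains hepatocyte gene expression, had 2840, 2545, 2950, 2944 and 2852 with RG3487, against 2533, 2140, 2150, 2238 and 2505 with vehicle (0.29 ± 0.06, adjusted p = 0.00653), and its other 2 probe sets also passed as higher. Of the interleukin 6 pathway, which drives the acute phase response, the receptor subunit gene Il6st fell (-0.30 ± 0.07, adjusted p = 0.00756), in all 4 of its probe sets, but lost its call with scaling by the hybridization controls (-0.10, adjusted p = 0.264). The kinase gene Jak1 rose by 0.27 ± 0.05 (adjusted p = 0.0019) and Stat3 by 0.55 ± 0.16 (adjusted p = 0.0263). The dimmer probe set of each also passed as higher, with 0.25 ± 0.06 for Jak1 (limma adjusted p = 0.0129) and 0.49 ± 0.11 for Stat3 (limma adjusted p = 0.00571). Rela, a subunit of NF-kB, rose by 0.22 ± 0.06 (adjusted p = 0.0205). The receptor gene Il6r had -0.42 ± 0.15 (adjusted p = 0.0585). The call of the brighter Stat3 probe set was lost without RG3487 rat 1, 3 or 5 or vehicle rat 2 (adjusted p = 0.0504 to 0.0596). With quantile normalization or centred arrays it was lost as well, as was that of Rela.

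The 7 factors that fell were bright. Of the 9, 6 lay among the brightest 5% of probe sets, and all 6 of these fell (C3, C8a, C9, C1s, Cfi and C4bpa). In that class 31.9% of all probe sets were lower and 19.7% higher, and the median change was -0.07. Among the brightest 10%, which also holds C5, 23% of probe sets were lower and 24.6% higher. C6 and Masp1 were the 2 outside the brightest 10% and the 2 that did not pass. The middle Masp1 probe set, with the largest fall of the 11, lay at percentile 54.2. Of the other complement genes that fell, C8b, C8g, Clu, Serping1 and Vtn lay at percentiles 97.8 to 99.6, C1qb at 79.1 and Cd93 at 39.3. How far brightness has a part in the falls was not tested.

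**Figure D4:**
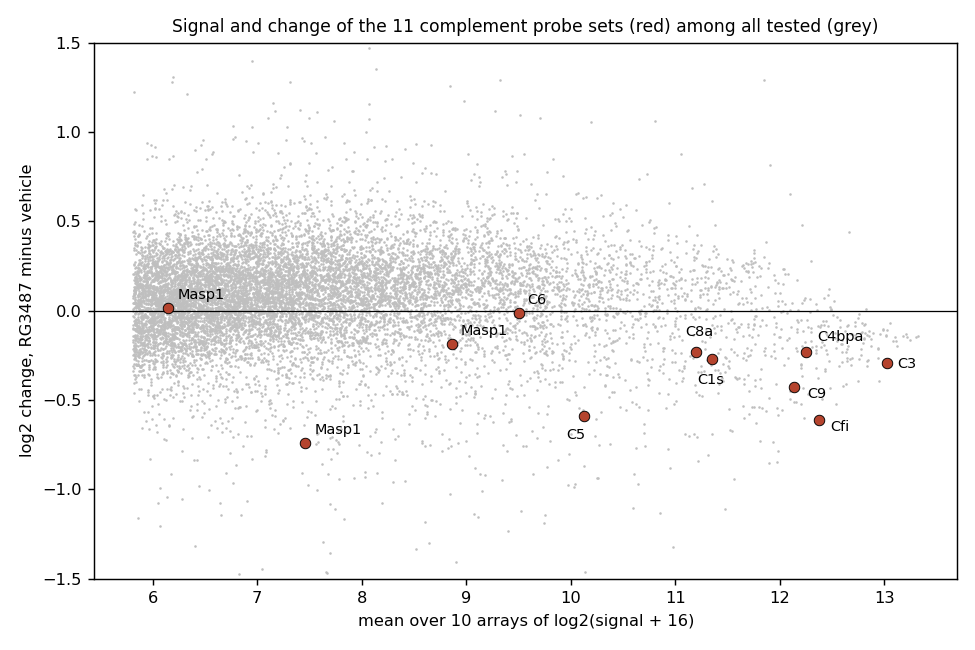
Log2 change (RG3487 minus vehicle) against mean log2(signal + 16) over the 10 arrays for all 11894 probe sets tested (grey), with the 11 complement probe sets in red. The axis stops at 1.5 in either direction, which leaves out 41 probe sets. The cloud bends below 0 at the bright end, where the median of the brightest 5% is -0.07, and Cfi, C5 and C9 lie between -0.61 and -0.43.

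Vehicle rat 5 was the highest vehicle liver for 6 of the 9 genes (C3, C8a, C9, C1s, Cfi and C4bpa), and it had the lowest median and the highest maximum signal of all arrays. RG3487 rat 5 was the lowest RG3487 liver for C3, C9 and C1s and had the lowest maximum signal, 9113. The others were divided evenly, with rat 2 lowest for 3 genes (C5, C6 and Masp1) and rat 4 for 3 (C8a, Cfi and C4bpa). The mean log2 signal over the 9 genes was 10.94 to 11.16 with RG3487 and 11.25 to 11.41 with vehicle. The part of the array-wide signal in this variation was not tested.

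**Figure D5:**
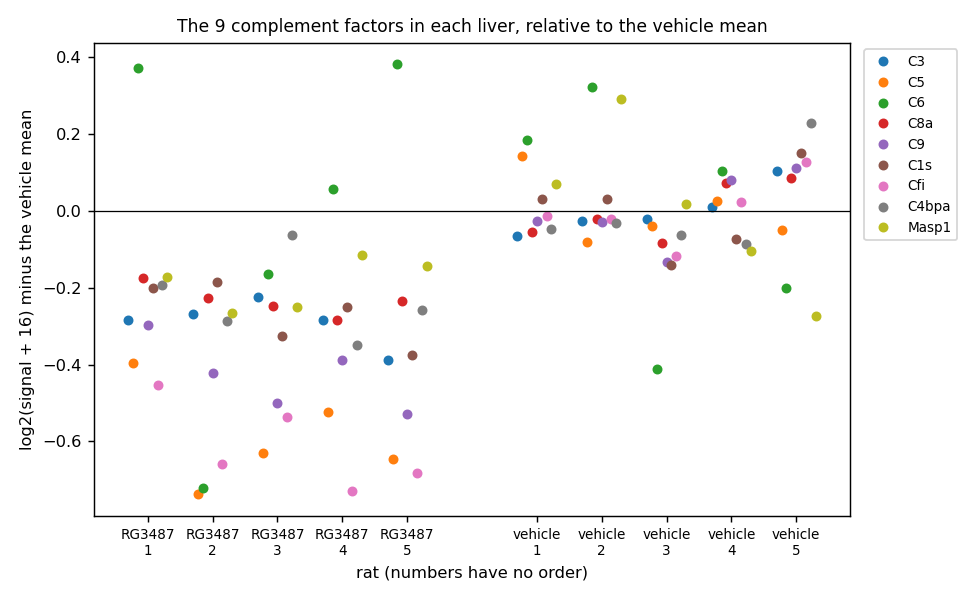
Log2(signal + 16) of each of the 9 complement genes, as its brightest probe set, in each liver minus the vehicle mean of that gene, with RG3487 rats on the left and vehicle rats on the right. Apart from C6, every gene lies below 0 in every RG3487 liver, and C6 ranges from -0.72 to 0.38 there.

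The profile of the 9 genes over the 10 arrays, each taken minus its own mean and then averaged, was set against every other gene outside the complement lists. The closest were Fkbp2, which encodes a peptidyl-prolyl isomerase, with a root mean square difference of 0.04 on the log2 scale, then Gask1b (0.05), Pde6g (0.06), Plg, which encodes plasminogen (0.06), and Kdsr (0.06). Gask1b, Pde6g and Kdsr were dim, at percentiles 17.7, 1.20 and 1.00 of brightness, and are not shown to lie above background. Plg had 4923 on average with RG3487 and 6174 with vehicle. Among the factors themselves C8a was closest to the shared profile (0.07) and C6 farthest (0.33). Each factor is part of that mean, so these values are not comparable with those of the outside genes. In the coagulation and fibrinolysis list, the other large group of liver plasma proteins, 12 of 18 genes were lower and 0 higher, where 7.4% of all genes were lower and 31.9% of the brightest 5% of probe sets. Their median change was -0.35, and no test between the lists was made.

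The falls depended on how the arrays were scaled. With arrays scaled by the hybridization controls, which assumes that equal amounts were added to every sample, 4 of the 11 probe sets remained lower (C5, C9, Cfi and the middle Masp1 probe set) and 0 were higher. That scaling shifted the all-gene median by 0.18, to 0.28, and relative to it the median of the 9 genes was -0.34, against -0.36 as deposited. C3 (-0.09, adjusted p = 0.133), C8a (-0.03, adjusted p = 0.625), C1s (-0.06, adjusted p = 0.382) and C4bpa (-0.03, adjusted p = 0.737) did not pass there, and C5 and C9 passed with smaller values (-0.39 and -0.22). There 3.04% of all probe sets were lower. With quantile normalization 8 of the 11 probe sets were lower, where 10% of all were, and with arrays centred on their median 9, where 11.2% of all were.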

How the data were processed

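Liver RNA of 5 RG3487 and 5 vehicle rats was measured on Affymetrix arrays from 1 ug of labelled RNA. The deposited values are signal intensities per probe set, made by the authors with MAS5, per the submitters' processing notes. Neither version nor scaling target is stated there. The number of arrays limits the precision, and detection calls were not used here.

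Of 15899 probe sets 40 were controls, 12562 had 1 gene symbol in the platform annotation, 332 several and 2965 none. Of the symbols with a RefSeq match by Entrez identifier (12525 probe sets), 0 changed. Signals were taken as log2 of signal plus 16, which makes the folds of dim genes smaller. Controls and the dimmest 25% of probe sets were left out. The groups were compared with limma 3.58.1 in R 4.3.3 (lmFit, eBayes with trend), two-sided, at a Benjamini-Hochberg adjusted p under 0.05. A gene was represented by its probe set with the highest mean.

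Single values were compared with exact two-sided permutation. The code was tested on simulated data. Genes named are the 9 factors, other complement genes that passed (the 2 with the smallest p in lists with none) and the 5 with the most similar profile. The values of others named (C1r, C1qa, C1qc, Mbl2, C4bpb and Il6r) were seen before they were chosen. The factors and lists were chosen with earlier results of these data known. The replicate numbers name different animals, so they were not used for pairing.

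Tried as well were other pseudocounts (1 and 64), quantile normalization, centring on the median, scaling by hybridization controls, no filter, a 50% filter, eBayes without trend or robust, a replicate block, each rat left out and other probe sets of Masp1. For the pairs of partner genes only the pseudocounts, quantile normalization and leaving out each rat were run, chosen after seeing the data.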

Additional observations from a re-analysis of the deposited data

Results flagged for a closer look

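In 62 groups of 5 values a single far value was looked for, and chance would flag about 1 in 20 such groups. Of these 6 had one, by a ratio of gap to range above Dixon's 95% critical value. For C4bpa, vehicle rat 5 stood at 6182, with the other vehicle livers at 4969 to 5165. For C8b, vehicle rat 4 stood at 2871, with the others at 4159 to 4312. For C8g, vehicle rat 2 stood at 3544, with the others at 4019 to 4172. For Cr1l, vehicle rat 2 stood at 449, with the others at 512 to 522. For Hnf4a, RG3487 rat 2 stood at 2545, with the others at 2840 to 2950. For Rela, RG3487 rat 3 stood at 167, with the others at 187 to 194.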

How the results depend on the processing

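Over the 20 alternatives, 8 of 11 complement probe sets passed as deposited, 7 to 9 did when 1 rat was left out and 4 with scaling by the hybridization controls. The median change of the 9 genes was -0.29 to -0.24 with 1 rat left out and -0.0645 with that scaling, and relative to all genes it was -0.39 to -0.27 throughout. Of all probe sets 2491 to 3449 passed with 1 rat left out and 6678 with scaling by the hybridization controls. The share of calls that were higher was 74.1% as deposited, 54.3% with quantile normalization, 50.4% with centred arrays and 94.6% with scaling by the controls. Scaling by the controls turned the sign of C6 (0.18), Masp1 (0.0085), Masp2 (0.048), Fcna (0.0085), Cfp (0.083) and Cfd (0.080), none of which passed before or after. The dimmest Masp1 probe set (0.015) has the opposite sign to the brightest. With 1 rat left out, C6 ranged from -0.12 to 0.16 and C8a minus C8g from -0.05105 to 0.0097. The cause of these shifts was not tested.

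Taking the rat number as a replicate block left 8 complement probe sets lower and 2918 probe sets past the threshold, and of the complement genes named it ended only the call of C8g (adjusted p = 0.0547). Correlations of the deviations of same-numbered rats were -0.04 to 0.17, and rat 2 alone correlated best with its own number in both groups, so the numbers were not taken as pairs. Cfd was too dim to be tested with the dimmest 50% left out. Signal without detection calls limits what can be said of dim probe sets.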
